A study of Mus musculus with 12 samples.

Results

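Muscle-specific alternative splicing is set by a small group of RNA-binding proteins, and 10 of their genes were followed here through the gastrocnemius and quadriceps of ground control and spaceflown mice. They are the muscleblind genes Mbnl1, Mbnl2 and Mbnl3, the RBFOX genes Rbfox1 and Rbfox2, the CELF genes Celf1 and Celf2, and Rbm20, Rbm24 and Qk. Members were chosen by name. They made up 10 of the 36008 genes listed with an expression level, and their splicing events, of the kinds skipped exon (SE) and mutually exclusive exons (MXE), made up 19 of the 2423 events listed for the gastrocnemius and 19 of the 2416 listed for the quadriceps. Both muscles were taken from the left hind limb of the same 6 female mice. The ground group (M02, M03 and M08) stayed in flight-type hardware on Earth, and the flight group (M11, M12 and M20) spent 9 weeks on the International Space Station. Mice were 30 weeks old at the start, and all 6 received a subcutaneous injection of phosphate-buffered saline every 2 weeks, so no group was free of injections. The labels give the strain as C57BL/6, whereas the study's methods name BALB/c. Muscles were dissected from carcasses that had been frozen and thawed. One RNA-seq library per muscle and mouse gave 12 libraries in 4 groups of 3.

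Muscleblind proteins promote the adult pattern of many exons in muscle and bind their own transcripts. Their loss from the free pool onto repeat RNA is the basis of myotonic dystrophy. CELF proteins act against them on a shared set of exons, RBFOX proteins bind the letters TGCATG beside exons, RBM20 sets exon use in titin, RBM24 favours inclusion of muscle exons, and QK acts in muscle, glia and vessel development. Several of these genes carry alternative exons of their own, which decide where the protein sits in the cell or which partners it meets.

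Of the 10 genes, 6 had a listed event, namely Mbnl1 with 8, Rbfox1 with 4, Rbfox2 with 3, Mbnl2 with 2, and Celf1 and Rbm24 with 1 each. None was listed for Mbnl3, Celf2, Rbm20 or Qk. The exons that the results below turn on are shown here as they lie in GRCm38, the build of the event tables, with the sequence taken from GENCODE transcripts in the direction of transcription. In Mbnl1, exon 2 holds the usual start codon, shown in capitals at the head of its coding part (chromosome 3, 60529631 to 60529804, plus strand). The 36-base exon (60621423 to 60621458, exon 7 of the 10 in Mbnl1-201) is coding, keeps the reading frame and is known to affect self-association of the protein. Its capitals mark a TGCATG, the RBFOX letters.
Mbnl1 exon 2, coding part: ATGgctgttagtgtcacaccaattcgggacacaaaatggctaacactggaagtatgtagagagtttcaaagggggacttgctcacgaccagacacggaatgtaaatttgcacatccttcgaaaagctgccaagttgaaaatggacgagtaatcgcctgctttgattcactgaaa
Mbnl1 36-base exon: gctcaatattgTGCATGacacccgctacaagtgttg

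TGCATG was searched on the transcribed strand of the 17 distinct exons of the members' events. It was found in the 36-base Mbnl1 exon and in no other of the 17, and among 693 annotated coding-transcript exons of 36 bases it occurred in 8, or 1.15%. The match is a description of the letters and shows no binding. The next Mbnl1 exon, of 95 bases (60622146 to 60622240), has a counterpart of the same length in Mbnl2 (chromosome 14, 120404638 to 120404732), and 81 of the 95 aligned bases were identical. Capitals mark the bases that differ. This exon shifts the reading frame.
Mbnl1 95-base exon: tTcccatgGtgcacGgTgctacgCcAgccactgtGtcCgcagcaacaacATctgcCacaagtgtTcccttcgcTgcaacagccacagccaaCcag
Mbnl2 95-base exon: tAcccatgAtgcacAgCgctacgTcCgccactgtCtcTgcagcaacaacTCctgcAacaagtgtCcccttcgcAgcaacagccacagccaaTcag

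In Rbfox1 and Rbfox2, a 40-base exon (called B40 in Rbfox1) is the form known from brain and the following 43-base exon (M43) the form known from muscle, and both are coding and shift the frame alike, so that one can take the place of the other. The 40-base exons lie on chromosome 16 at 7363865 to 7363904 for Rbfox1, on the plus strand, and on chromosome 15 at 77094451 to 77094490 for Rbfox2, on the minus strand. Capitals mark the bases that differ between the genes. The 40-base exons shared 34 bases (85.0%), whereas the 43-base exons (7369801 to 7369843 and 77091812 to 77091854) shared 27 (62.8%).
Rbfox1 40-base exon: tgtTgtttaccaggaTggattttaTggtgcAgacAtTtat
Rbfox2 40-base exon: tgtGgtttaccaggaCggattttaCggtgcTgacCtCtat
Rbfox1 43-base exon: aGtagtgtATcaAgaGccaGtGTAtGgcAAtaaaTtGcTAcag
Rbfox2 43-base exon: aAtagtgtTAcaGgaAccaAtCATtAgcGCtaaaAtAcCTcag

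Another pair of exons, of 93 bases, codes for part of the RNA recognition motif, and skipping it yields a protein that is known to bind RNA poorly. It lies at 7292185 to 7292277 in Rbfox1 and at 77105577 to 77105669 in Rbfox2, keeps the frame, and shared 86 of 93 bases (92.5%).
Rbfox1 93-base exon: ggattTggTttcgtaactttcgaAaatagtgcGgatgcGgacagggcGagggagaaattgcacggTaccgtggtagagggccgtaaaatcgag
Rbfox2 93-base exon: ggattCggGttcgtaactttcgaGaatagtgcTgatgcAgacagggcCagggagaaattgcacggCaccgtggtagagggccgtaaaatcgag

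Expression is given as TPM, a transcript abundance that is scaled for transcript length and for the total of a library, so levels can be set beside each other between genes but carry no read depth. Each library listed 18172 to 21265 genes above 0, the lowest in the ground quadriceps of M08. Splicing is given as PSI, the percent of transcripts that include the exon, computed from junction reads divided by the effective length of each form. The listed events held 777760 to 1246850 junction reads per sample. The event tables list the 3 samples of a group without mouse names, so samples are named by list position. The ground quadriceps sample at position 3 stood apart. It had the fewest reads and no read at all for 79 of its 2416 events, against at most 2 in any other sample. It also had no inclusion read in 266 of the 2062 events that passed the filter of its muscle, against 33 to 77 events in the others, and in 5 of the 19 events of the members. Without it, the quadriceps ΔPSI (flight minus ground) turned its sign in 5 member events, 3 of Mbnl1 and 1 each of Rbfox1 and Rbm24, which are given both ways.

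Over the 12 libraries Mbnl1 was the most abundant member, at a mean of 286.6 TPM and a range of 250 to 316. Mbnl2 followed at 153 TPM, Qk at 137, Rbfox1 at 133, Rbm24 at 90.5, Rbfox2 at 70.6, Celf2 at 47.1, Rbm20 at 34.8 and Celf1 at 17.8. Mbnl3, which is mostly a gene of regenerating and embryonic muscle, had 2.01 TPM and at most 2.87. The ranges of neighbours in this order did not overlap between Mbnl1 and Mbnl2, Rbfox1 and Rbm24, Rbm20 and Celf1, or Celf1 and Mbnl3, and overlapped in the other 5 neighbouring pairs. Thus Mbnl1 exceeded all other members in all 12 libraries, while Mbnl2, Qk and Rbfox1 kept no single order across libraries. These ranges pool the 4 groups and do not compare genes within a library.

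**Figure D1:**
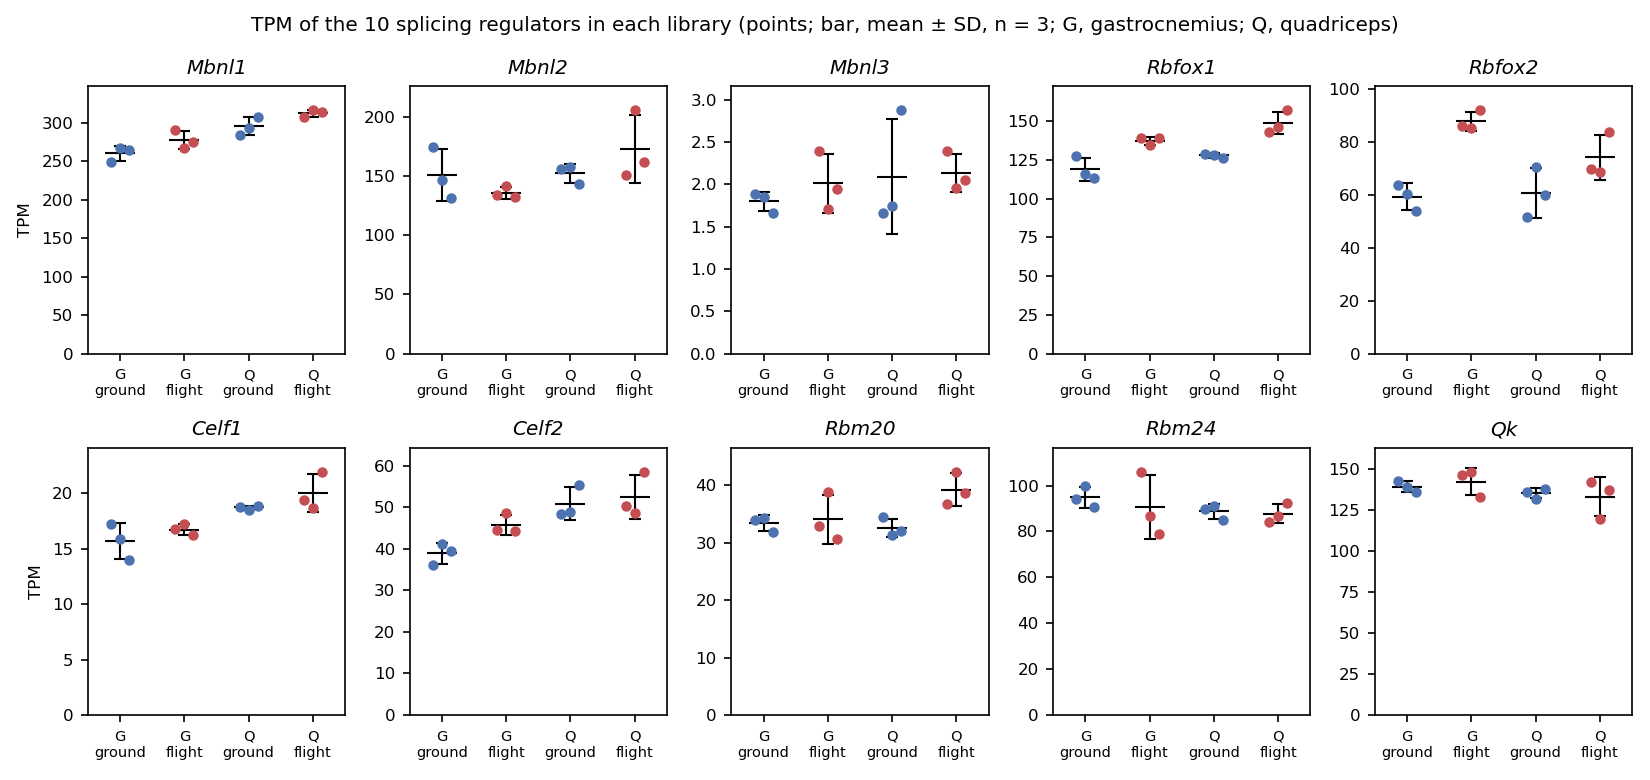
TPM (y axis, from 0, own scale per gene) of each of the 10 regulators in the 12 libraries, by muscle and condition (x axis). Points are libraries, bars the mean and SD of 3. The Rbfox1 points of both flight groups and the Rbfox2 points of the flight gastrocnemius lie above all ground points of the same muscle.

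The first comparison asked whether the regulators themselves changed with flight. Of the 9 members that passed the filter (TPM above 5 in at least 1 library), limma called 0 in either muscle. A call needed over 1.5-fold change and an adjusted p under 0.05. Over all 10481 genes tested, 0.229% were called in the gastrocnemius and 0.0286% in the quadriceps. At an unadjusted p under 0.05, 3 members lay past the threshold in the gastrocnemius (15.1% of all genes) and 2 in the quadriceps (10.8%), all 5 values higher in flight. Mbnl3 was not tested. In bulk tissue, a change in the share of a cell type and a change in RNA per cell cannot be told apart.

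The largest difference belonged to Rbfox2. In the gastrocnemius it had 63.9, 60.4 and 53.9 TPM in ground mice M02, M03 and M08 and 86.2, 85.5 and 92.0 TPM in flight mice M11, M12 and M20. All 3 flight values lay above all ground values. The mean went from 59.4 ± 5.03 to 87.9 ± 3.58 TPM (SD, n = 3), a log2 fold change of 0.56 ± 0.09 (SE), with a limma p of 0.000266 before and 0.0774 after adjustment over all genes, so the difference did not pass the test. In the quadriceps Rbfox2 had 51.6, 70.7 and 59.8 TPM on the ground and 70.0, 68.8 and 83.9 TPM in flight. These groups overlapped, and the log2 fold change was 0.29 ± 0.13 (limma adjusted p = 0.491). Its log2 fold change in the gastrocnemius exceeded that in the quadriceps by 0.27 ± 0.15 (limma interaction, adjusted p = 0.96).

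Rbfox1 showed a smaller difference of nearly the same size in both muscles. In the gastrocnemius it had 127, 116 and 114 TPM on the ground and 139, 135 and 139 TPM in flight. In the quadriceps it had 129, 128 and 126 TPM on the ground and 143, 146 and 157 TPM in flight. The groups did not overlap in either muscle. Log2 fold changes were 0.21 ± 0.08 (limma adjusted p = 0.272) and 0.22 ± 0.07 (limma adjusted p = 0.362). The 2 muscles came from the same mice and do not repeat the flight comparison independently.

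Celf2 in the gastrocnemius had 36.1, 41.2 and 39.5 TPM on the ground and 44.4, 48.6 and 44.4 TPM in flight, with no overlap and a log2 fold change of 0.23 ± 0.09 (limma adjusted p = 0.284). In the quadriceps its change was 0.04 ± 0.10 (limma adjusted p = 0.903). Rbm20, the titin splicing factor, had 34.4, 31.3 and 32.1 TPM in the ground quadriceps and 36.7, 42.3 and 38.7 TPM in the flight quadriceps, again with no overlap, and a log2 fold change of 0.26 ± 0.09 (limma adjusted p = 0.397). In the gastrocnemius its change was 0.02 ± 0.10 (limma adjusted p = 0.941). The changes in the 2 muscles differed by 0.19 ± 0.14 for Celf2 and -0.24 ± 0.12 for Rbm20 (limma interaction, adjusted p = 0.968 and 0.957).

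The muscleblind genes had smaller differences. Mbnl1 went from 261 ± 9.54 to 278 ± 11.8 TPM in the gastrocnemius and from 295.5 ± 11.7 to 312.6 ± 4.32 TPM in the quadriceps (SD, n = 3), log2 fold changes of 0.09 ± 0.07 and 0.08 ± 0.06. Its gastrocnemius groups did not overlap, but by the narrowest margin, 267.0 TPM in the highest ground mouse against 267.5 in the lowest flight mouse. Mbnl2 went from 151 ± 21.9 to 136 ± 5.05 TPM in the gastrocnemius and from 152 ± 7.90 to 173 ± 28.9 TPM in the quadriceps, where M12 alone had 205 TPM. Its flight effects differed between the muscles by -0.31 ± 0.13 on the log2 scale, with a limma interaction p of 0.045 before and 0.957 after adjustment. Mbnl3 had group means of 1.80 to 2.13 TPM. Over the 12 libraries Celf1 had at most 21.9 TPM, Rbm24 78.9 to 106 and Qk 119.5 to 148, and their log2 fold changes lay between -0.08 and 0.09 in both muscles, all with overlapping groups.

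**Figure D2:**
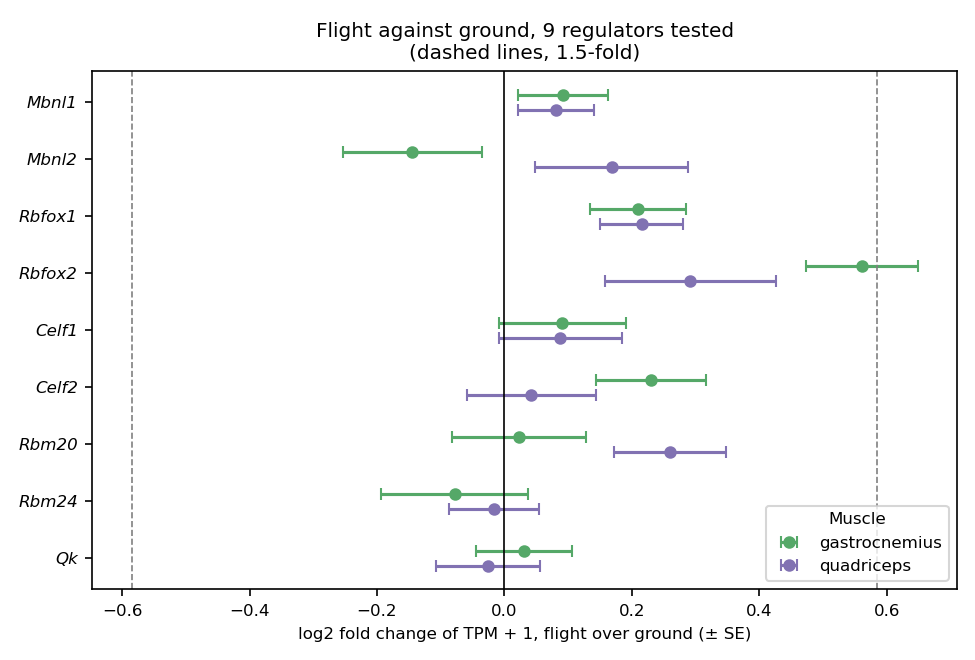
Log2 fold change of TPM + 1, flight over ground (x axis), with its SE for the 9 regulators tested (y axis) in each muscle. Rbfox2 in the gastrocnemius, at 0.56, is the point nearest the dashed line at 1.5-fold, and no point lies beyond it.

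Counting the groups that did not overlap gave the same picture. In the gastrocnemius 4 of 9 members (Mbnl1, Rbfox1, Rbfox2 and Celf2) lay wholly above ground in flight, as did 12.5% of all genes tested, and 0 lay wholly below, against 8.55%. Mbnl1 is among the 4 only by the margin given above, on TPM totals that were unequal. In the quadriceps 2 of 9 (Rbfox1 and Rbm20) lay wholly above, against 9.24% of all genes, and 0 wholly below, against 8.12%. With 3 mice against 3, an exact permutation test of 1 gene cannot give a two-sided p under 0.1, which is the value of each of these. The median log2 fold change of the 9 members was 0.09 in both muscles, beside 0.02 and 0.01 over all genes.

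Other tissue splicing regulators were described from a list of 31 genes, of which 18 were tested and 0 were called in either muscle. In the gastrocnemius 6 of the 18 had an unadjusted limma p under 0.05, all higher in flight, beside 15.1% of all genes. The list had a median log2 fold change of 0.17, beside 0.02 over all genes. Rbpms, an RNA-binding protein of smooth and cardiac muscle, went from a mean of 13.7 to 19.6 TPM (log2 fold change 0.48, limma adjusted p = 0.127), and Rbm5 from 57.9 to 74.0 TPM (0.35, limma adjusted p = 0.167). Ptbp2, Rbm4b, Nova1 and Esrp2 had log2 fold changes of 0.28, 0.23, 0.38 and 0.60, the last on means of 0.875 and 1.84 TPM. In the quadriceps 2 of the 18, Rbm5 (log2 fold change 0.27) and Rbm4b (0.22), were past the unadjusted threshold, beside 10.8% of all genes. The list median there was 0.14, beside 0.01 over all genes. In the interaction 1 of the 18, Nova1, was past that threshold, beside 5.09% of all genes, with a difference of 0.74 (limma adjusted p = 0.957). Between the muscles on the ground 2 were past it, beside 27.4% of all genes, and 0 were called, beside 1.89%. These were Rbpms at 0.29 and Elavl1 at -0.25, gastrocnemius over quadriceps.

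Markers of cell types were read beside these results. The muscle fiber list of 6 genes summed to 77299 to 112824 TPM in all libraries, so the labelled tissue carried its markers. Of the 6, 2 were called lower in the gastrocnemius than in the quadriceps on the ground. The 6 slow fiber markers summed to 1571 to 1924 TPM in the ground gastrocnemius and 975 to 1179 TPM in the flight gastrocnemius. Of the 6, 2 were called lower in flight by limma there. In the quadriceps they summed to 793, 1972 and 1990 TPM on the ground and 1078 to 1531 TPM in flight, which overlapped, and 0 were called. All 5 neuronal markers, Rbfox3 among them, stayed under 1 TPM in every library. The 4 adipocyte markers tested were lower in the flight quadriceps at unadjusted p under 0.05, with 0 called, and their list of 5 summed to 45.9 to 111 TPM on the ground and 25.4 to 36.7 TPM in flight. On the ground 3 of them were called lower in the gastrocnemius. Over the 12 libraries, sums ran from 67.9 to 104 TPM for endothelial and 193 to 299 for fibroblast markers. Leukocyte sums were 9.56 to 11.3 TPM on the ground and 12.3 to 13.1 in flight in the gastrocnemius, and 8.62 to 12.6 and 13.2 to 15.6 in the quadriceps, so flight lay above ground in both. Satellite cell sums in the quadriceps were 13.8 to 15.3 TPM on the ground and 15.4 to 16.8 in flight, also without overlap, whereas they overlapped in the gastrocnemius. Only 1 of the 5 leukocyte and 2 of the 5 satellite cell markers passed the 5 TPM filter, so both sums are of low genes. The smooth muscle sums of 1041 to 1250 TPM were mostly Des, which skeletal fibers also express, with group means of 929 to 1100 TPM. The other smooth muscle markers tested, Acta2, Tagln and Myh11, had group means of 18.4 to 70.4 TPM. In these 5 lists 0 genes were called in any comparison, and the part of any cell type in the members' differences was not tested.

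The second comparison asked whether the transcripts of the regulators were spliced differently in flight. Of the 19 events per muscle, 17 passed the filter (in each group the junction reads averaged over 10, and PSI was not at an extreme in every sample). With a call set at a ΔPSI of over 5% and adjusted p under 0.05, limma called 0 of the 17 in either muscle. It called 0.378% of all gastrocnemius events and 0.0% of all quadriceps events. A quasi-binomial model of the reads called 1.32% and 0.824% of all events and 0 member events, and read-weighted limma also called 0. At an unadjusted limma p under 0.05 stood 3 of the 17 in each muscle, beside 9.49% and 7.81% of all events. PSI groups did not overlap for 4 of 17 in each muscle, beside 16.2% and 12.5%. Events of a gene share junctions and are not separate measurements.

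In Mbnl1, the lowest p in the gastrocnemius belonged to the 36-base exon. Spliced to the 95-base exon that follows it, it had 3, 4 and 3 inclusion reads and 28, 16 and 20 skipping reads in the 3 ground gastrocnemius samples. In the 3 flight samples it had 17, 10 and 14 inclusion reads and 21, 22 and 19 skipping reads. PSI was 5.82%, 12.6% and 7.96% on the ground and 31.8%, 20.8% and 29.8% in flight, so every flight sample lay above every ground sample. The mean went from 8.79% ± 3.47 to 27.5% ± 5.89 (SD, n = 3), a ΔPSI of 18.7% and a log2 change in the ratio of inclusion to skipping of 1.88 ± 0.57. The limma p was 0.0106, and 0.304 after adjustment over 2118 events. It was 0.0624 with read weights and 0.113 in the quasi-binomial model, both adjusted. The exon thus missed the threshold in all 3, on 20 to 38 reads per sample.

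The same exon was also listed with the 95-base exon left out. There, PSI in the gastrocnemius was 7.96%, 18.7% and 12.2% on the ground and 32.5%, 16.8% and 24.3% in flight. These groups overlapped, with a ΔPSI of 11.6% and a limma p of 0.101. Set against the 95-base exon as an MXE event, it had 2.39%, 7.74% and 5.82% on the ground and 11.9%, 9.03% and 11.7% in flight, without overlap and with a ΔPSI of 5.54% (limma adjusted p = 0.466). All 3 listings count the same upstream junction of the exon, and in none was it called. The MXE listing had the same inclusion reads as the listing with the 95-base exon left out in every sample. In the gastrocnemius these were 3, 8 and 6 on the ground and 20, 13 and 15 in flight. Those 2 listings differ only in the reads set against them.

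In the quadriceps the 36-base exon spliced to the 95-base exon had PSI of 22.4%, 16.6% and 0% on the ground and 24.3%, 10.3% and 25.4% in flight. The ground value of 0% came from position 3, with 0 of 15 reads, which allows up to 3 reads in 15. The groups overlapped, with a ΔPSI of 7.02% and a log2 change of 1.23 ± 1.17 (limma adjusted p = 0.833). Without position 3 the log2 change was -0.01. The flight effects of the 2 muscles differed by 0.64 ± 1.34 on the log2 scale (limma interaction, adjusted p = 0.944), with an SE larger than the difference. With the 95-base exon left out, and as an MXE event, the quadriceps ΔPSI was 0.626% and 2.16%, in both with 0% at ground position 3. Without that sample the 2 values were -6.26% and -1.21%.

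Listed without the 36-base exon, the 95-base exon had PSI of 69.1% to 77.9% on the ground and 67.1% to 78.1% in flight in the gastrocnemius. In the quadriceps it had 51.9% to 70.5% and 54.1% to 69.7%. Listed after the 36-base exon it had PSI of 94.2% ± 5.10 and 95.3% ± 1.21, and of 95.8% ± 7.22 and 94.7% ± 0.16 (SD, n = 3). Flight and ground overlapped in all 4 of these pairs, and limma p lay between 0.272 and 0.801. Without ground position 3 the quadriceps ΔPSI of this last listing went from -1.15% to 0.937%. In the ground gastrocnemius that listing had 114, 95 and 93 inclusion reads. The 36-base exon joined to the 95-base exon had 3, 4 and 3 there. If shared junctions were counted alike, the rest lie on the junction after the 95-base exon. Transcripts without the 36-base exon use that junction too, so inclusion after the 36-base exon alone was not measured. The listing without the 36-base exon shares that junction, and had 129, 120 and 124 inclusion reads in the flight quadriceps. Only 18, 15 and 22 reads there skipped the 36-base exon and joined the 95-base exon, against 42, 51 and 27 that skipped both. In the ground gastrocnemius these counts were 28, 16 and 20 against 20, 20 and 25. Inclusion where the 36-base exon was absent was thus not measured alone either. The 111-base exon (60596719 to 60596829), coding in 1 annotated transcript, was a minor form at 6.06% ± 1.77 and 7.64% ± 2.82 in the gastrocnemius and at 0% to 12.4% and 2.75% to 17.9% in the quadriceps, and its groups also overlapped.

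Exon 2 of Mbnl1 was listed in a long form (60528756 to 60529804) that carries the start codon and a short form (60528756 to 60528978) found in 1 annotated transcript, which is not protein-coding. For the long form in the quadriceps, ground samples had 148, 216 and 154 inclusion reads and 14, 4 and 1 skipping reads. Flight samples had 130, 131 and 160 inclusion reads and 19, 16 and 18 skipping reads. PSI was 84.1%, 96.4% and 98.7% on the ground and 77.4%, 80.4% and 81.6% in flight, without overlap, and the first ground sample was nearer to the flight samples than to the other ground samples. The mean went from 93.1% ± 7.87 to 79.8% ± 2.18, a ΔPSI of -13.3% and a log2 change of -2.26 ± 0.76 (limma adjusted p = 0.54). The limma p before adjustment was 0.0153. Without the ground sample at position 3 the log2 change was -1.52, with a limma p of 0.0511 before adjustment, and with read weights it was -1.18 and 0.0603.

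The short form shares its skipping reads with the long form, and so repeats the same low ground counts. Its quadriceps PSI was 15.2%, 72.4% and 88.9% on the ground and 0%, 22.0% and 14.3% in flight, an overlapping range, with a ΔPSI of -46.7% on 17 to 25 reads (limma adjusted p = 0.627, quasi-binomial adjusted p = 0.0875). Its log2 change was -3.97 ± 1.55, and -2.96 without position 3. In the gastrocnemius the groups overlapped for both forms. The long form had PSI of 78.2%, 78.5% and 74.1% on the ground and 73.8%, 73.1% and 74.8% in flight, and the short form 14.6% ± 8.71 and 15.0% ± 2.71. The flight effects of the 2 muscles differed by 2.03 ± 0.86 for the long form and 4.10 ± 1.79 for the short form on the log2 scale (limma interaction, adjusted p = 0.712 and 0.717).

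What these reads measure is limited by the annotation. Both forms of exon 2 use the same upstream junction. If its reads were counted alike in both, reads of the long form beyond those of the short form lie on the long form's downstream junction. They made up at least 89.6% of its inclusion reads in every sample, and all 130 in the flight quadriceps sample at position 1. Of the 25 annotated Mbnl1 transcripts, 5 begin inside exon 2 and leave it at the same 3′ end. Transcripts that begin there and transcripts that include the exon after an upstream exon cannot be told apart by those reads. Where exon 2 is skipped, 5 annotated transcripts start translation in the next exon.

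**Figure D3:**
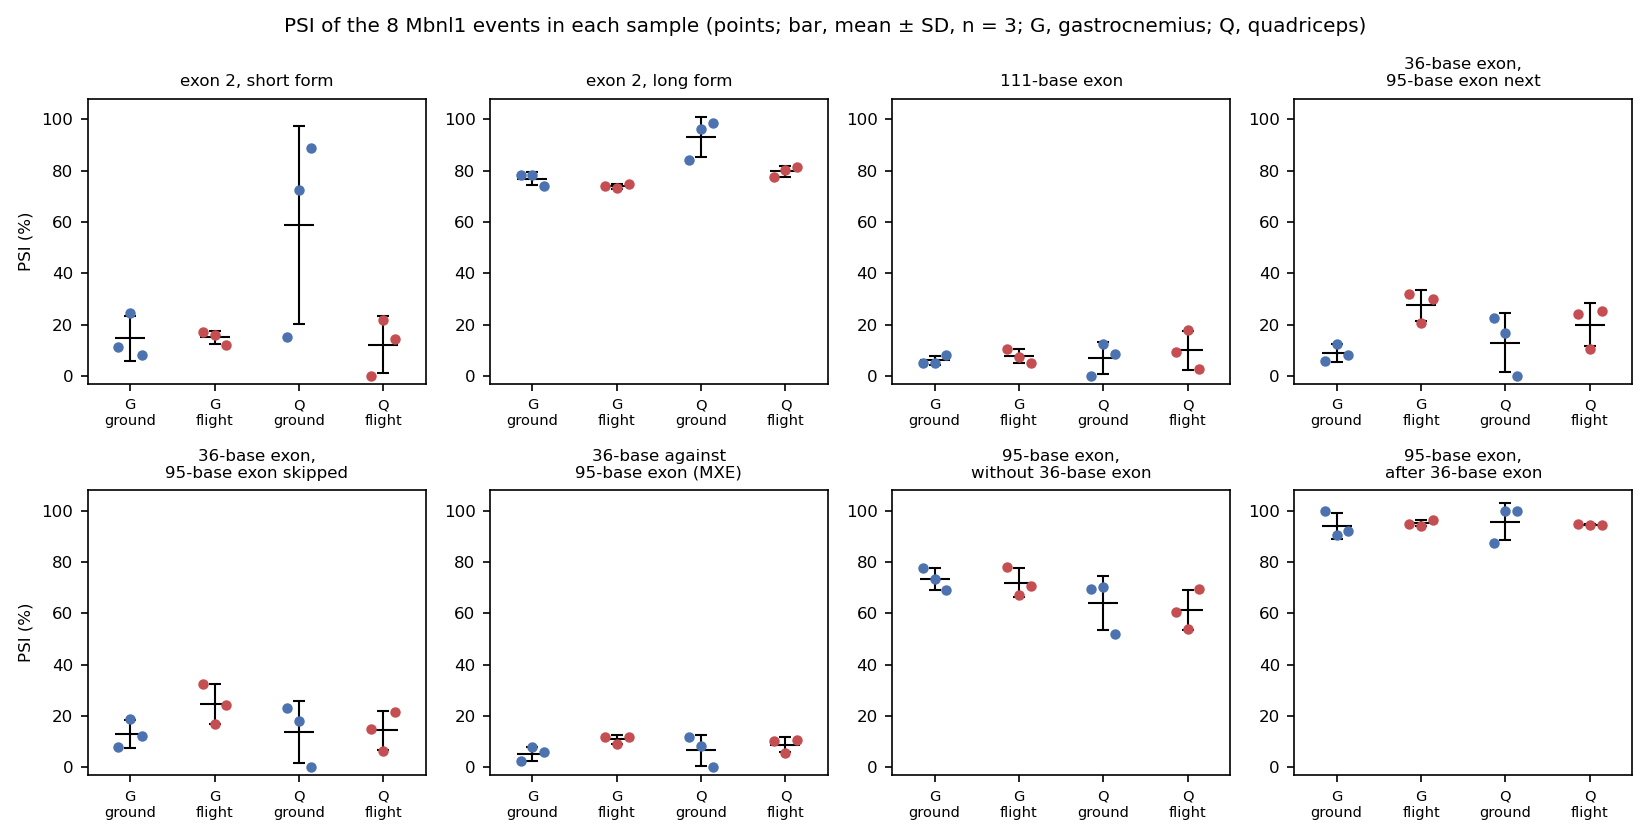
PSI in percent (y axis) of the 8 Mbnl1 events in each sample, by muscle and condition (x axis). Points are samples, bars the mean and SD of 3. For the 36-base exon with the 95-base exon next, the 3 flight gastrocnemius points (20.8% to 31.8%) lie above the 3 ground points (5.82% to 12.6%), while the quadriceps groups overlap.

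In Rbfox1, the 40-base B40 exon had a higher mean PSI in flight in both muscles, without passing the test. Ground gastrocnemius samples had 6, 11 and 6 inclusion reads against 63, 56 and 56 skipping reads, and flight samples 15, 10 and 17 against 51, 33 and 47. PSI was 4.98%, 9.76% and 5.57% on the ground and 13.9%, 14.3% and 16.6% in flight. In the quadriceps it was 5.30%, 7.67% and 3.70% on the ground and 10.5%, 17.7% and 15.2% in flight. No flight sample reached down into the ground range in either muscle. ΔPSI was 8.18% in the gastrocnemius, a log2 change of 1.29 ± 0.45 (limma adjusted p = 0.391), and 8.93% in the quadriceps, a log2 change of 1.46 ± 0.63 (limma adjusted p = 0.638). The limma p before adjustment was 0.0208 and 0.0445. Without the ground quadriceps sample at position 3 the latter change was 1.22, with a limma p of 0.0688 before adjustment. The flight effects differed between the muscles by -0.17 ± 0.71 (limma interaction, adjusted p = 0.981). Neuronal markers were under 1 TPM in every library, and which cell type the B40 reads came from was not tested.

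Set against M43 as an MXE event, B40 had PSI of 7.93%, 15.3% and 9.37% in the ground and 15.8%, 12.4% and 23.0% in the flight gastrocnemius, which overlapped, and 8.03%, 11.4% and 6.88% against 14.7%, 19.6% and 14.9% in the quadriceps, which did not. The limma p before adjustment was 0.162 and 0.131. M43, the muscle exon, remained the major form in all 12 samples. The 2 listings share the upstream junction of B40 and differ in what follows it. How reads across both junctions of so short an exon were counted is not given in the sources used here. The SE event counts B40 joined to M43, and the MXE event counts B40 joined to the exon after M43. Inclusion reads were equal in both listings in all 6 ground samples. In flight the SE listing had 3, 3 and 2 more in the gastrocnemius and 1, 6 and 6 more in the quadriceps. If reads on the shared junction were counted alike in both listings, these are the reads by which B40 next to M43 exceeded B40 joined past M43. This count was chosen after its values were seen, and in each muscle the exact two-sided permutation p was 0.1, the smallest that 3 against 3 allow.

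The other 2 Rbfox1 events did not differ beyond their spread. The 93-base exon of the RNA recognition motif had PSI of 89.5% ± 4.53 and 89.6% ± 1.58 in the ground and flight gastrocnemius and 82.6% ± 11.8 and 85.4% ± 4.29 in the quadriceps (SD, n = 3). In the MXE event near the 3′ end, the 65-base exon (7375905 to 7375969) was set against the 76-base exon (7407964 to 7408039), both coding. Its PSI was 37.4% ± 4.75 and 33.9% ± 5.68 in the gastrocnemius and 36.2% ± 6.80 and 46.1% ± 12.7 in the quadriceps. Limma p for these events lay between 0.462 and 0.957 in both muscles. Without ground position 3 the quadriceps ΔPSI of the 93-base exon went from 2.73% to -3.10%.

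**Figure D4:**
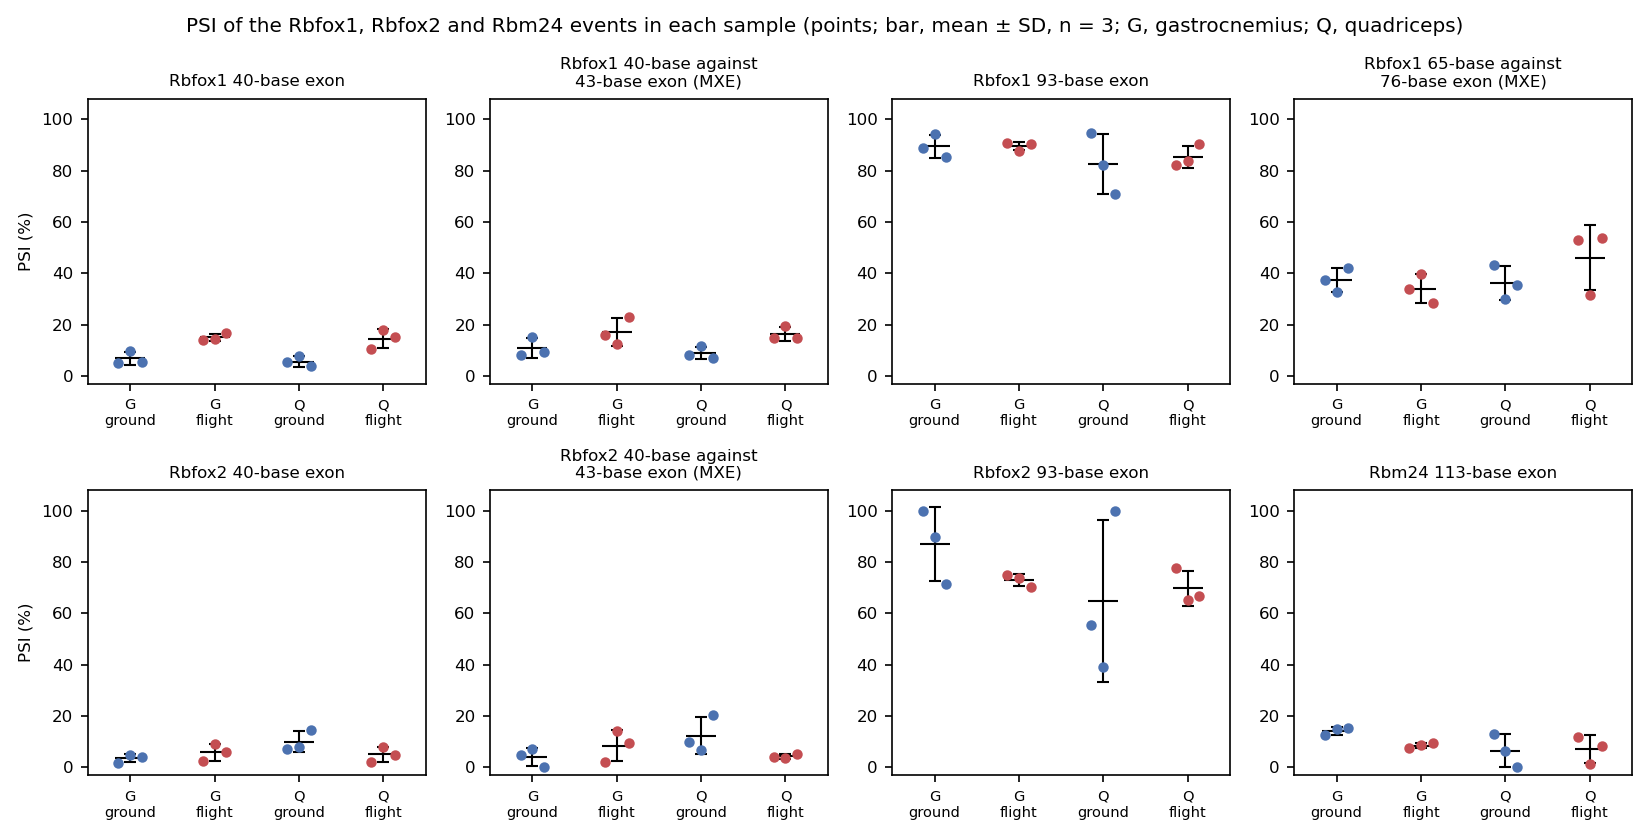
PSI in percent (y axis) of the 4 Rbfox1, 3 Rbfox2 and 1 Rbm24 events in each sample, by muscle and condition (x axis). Points are samples, bars the mean and SD of 3. The 40-base exon of Rbfox1 lies higher in all flight than in all ground samples of each muscle (10.5% to 17.7% against 3.70% to 9.76%), whereas the 40-base exon of Rbfox2 overlaps.

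The counterpart exons of Rbfox2 showed other values. Its 40-base exon had PSI of 3.51% ± 1.59 and 5.81% ± 3.33 in the ground and flight gastrocnemius and 9.93% ± 4.12 and 5.08% ± 2.93 in the quadriceps, with overlap in both. Against its 43-base exon it had 3.91% ± 3.58 and 8.51% ± 6.09 in the gastrocnemius. In the quadriceps it had 9.97%, 6.65% and 20.5% on the ground and 3.97%, 3.56% and 5.29% in flight, without overlap, on 25 to 52 reads (ΔPSI -8.11%, limma adjusted p = 0.723). The highest value was that of position 3, and without it the log2 change went from -1.34 to -0.87. The Rbfox2 93-base exon had 100%, 90.0% and 71.4% on the ground and 75.0%, 73.9% and 70.4% in flight in the gastrocnemius, a ΔPSI of -14.0% on 18 to 28 reads (limma adjusted p = 0.649). In the quadriceps it had 55.6%, 39.0% and 100% on the ground, the last on 4 reads at position 3, and 77.8%, 65.2% and 66.7% in flight (limma adjusted p = 0.916). Its log2 change there was 0.49, which became 1.28 without ground position 3 and -0.13 without ground position 2.

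Among the remaining members, the Rbm24 113-base exon (chromosome 13, 46422276 to 46422388) lies only in 2 annotated transcripts that are not protein-coding. Its PSI was 12.5%, 14.9% and 15.2% in the ground and 7.56%, 8.54% and 9.30% in the flight gastrocnemius, without overlap and with a ΔPSI of -5.71% (limma adjusted p = 0.597). In the quadriceps its ΔPSI was 0.77%, with 0 inclusion reads among 32 at ground position 3, and -2.42% without that sample. The Mbnl2 54-base exon (chromosome 14, 120395712 to 120395765), whose counterpart in Mbnl1 is known to direct the protein to the nucleus, had group means of 4.74% to 7.26%, and its groups overlapped. The Mbnl2 95-base exon and the Celf1 152-base exon (chromosome 2, 90987665 to 90987816) did not pass the filter. On 4 to 25 reads, mean PSI of the Mbnl2 exon was 47.1% and 83.3% in the ground and flight gastrocnemius and 47.3% and 70.5% in the quadriceps. On 0 to 23 reads, that of the Celf1 exon was 85.2% and 63.4%, and 83.3% and 61.7%. Groups overlapped or had a missing sample, and no test was made.

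The 2 muscles were also compared on the ground, where the same 3 mice gave both. Of the 9 members 0 were called, beside 1.89% of all genes, and 2 had an unadjusted limma p under 0.05, both lower in the gastrocnemius, beside 27.4% of all genes. All genes together had a median log2 difference of -0.12, gastrocnemius over quadriceps, and values are given beside it. Celf2 had 38.9 ± 2.60 TPM in the gastrocnemius and 50.9 ± 3.98 in the quadriceps (SD, n = 3), a log2 difference of -0.38 ± 0.08 (limma adjusted p = 0.0694). After rescaling by the median ratio it was -0.26 (adjusted p = 0.149). Mbnl1 had 261 ± 9.54 and 295.5 ± 11.7 TPM, a difference of -0.18 ± 0.06 (limma adjusted p = 0.126) that became -0.06 after rescaling. The other 7 members had differences of -0.25 to 0.10, of which those of Mbnl2, Rbfox1 and Rbfox2 turned from below to above 0 with rescaling. After rescaling, 3 members had an unadjusted limma p under 0.05, with Celf2 lower and Rbm24 (0.22) and Qk (0.17) higher in the gastrocnemius, and Mbnl1 did not. The Schwann cell markers, of which 4 of 5 were called, summed to 146 to 220 TPM in the ground gastrocnemius and 56.0 to 89.2 TPM in the ground quadriceps, and their part in these differences was not tested. For the flight effect between the muscles, 0 of 9 members and 0.0% of all genes were called. There, 1 member (Mbnl2) had an unadjusted limma p under 0.05, beside 5.09% of all genes.

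Splicing of the members between the muscles was not called in any of 17 events, by limma or by the quasi-binomial model, beside 5.97% and 6.3% of all events. Unlike for expression, these fits had no mouse block, because the event samples carry no mouse names. Their p-values ignore that both muscles came from the same mice. At an unadjusted limma p under 0.05 were 2 of 17, beside 13.6%, and both were the forms of Mbnl1 exon 2. For the long form the ground gastrocnemius had 76.9% ± 2.48 and the ground quadriceps 93.1% ± 7.87 (limma adjusted p = 0.13). Without position 3 the log2 difference went from -2.50 to -1.76 (limma adjusted p = 0.222). Without the ground quadriceps sample at position 1, both forms were called (limma adjusted p = 0.00583 and 0.0328). For the flight effect between the muscles, 0 of 17 member events were called, beside 0.161% of all events by limma and 0.323% by the quasi-binomial model. At an unadjusted limma p under 0.05 were 2 of 17, again the forms of exon 2, beside 6.78%.

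Genes whose exons these proteins are known to control, Mbnl1, Mbnl2, Rbfox1 and Rbfox2 among them, were counted from a list of 35, of which 30 had a kept event in each muscle. Between the muscles on the ground, 103 of their 335 events were called, beside 5.97% of all events. Of these, 100 were among 220 events of Ttn, the titin gene and the best known target of RBM20. Among the 115 target events outside Ttn 3 were called, 2 in Tnnt3 and 1 in Ryr1. Ttn events share junctions and do not count as separate exons. Rbm20 itself had 33.4 ± 1.36 TPM in the ground gastrocnemius and 32.6 ± 1.62 in the ground quadriceps, a log2 difference of 0.04 ± 0.08 (limma adjusted p = 0.801). These are RNA levels only, and the part of RBM20 in the Ttn events was not tested. For flight against ground, 7 of 376 target events were called in the gastrocnemius, all 7 in Ttn, beside 0.378% of all events. In the quadriceps 0 of 387 were called, beside 0.0%, and 70 had an unadjusted limma p under 0.05, beside 7.81%. Outside Ttn, 0 of 123 and 0 of 116 events were called. At that unadjusted threshold were 24 and 16 of them, beside 9.49% and 7.81% of all events. For the flight effect between the muscles, 2 of 335 were called, both in Ttn, beside 0.161% of all events.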

How the data were processed

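Stranded mRNA libraries were read as single ends. The authors estimated TPM with kallisto 0.46.0 and summed it per gene with tximport, and the deposited TPM values hold no counts. For splicing, they aligned reads with STAR 2.7.1a to mm10 (GRCm38) and ran rMATS-turbo, whose version is not given in the sources used here. The deposited event tables give whole-number junction reads per sample, as comma-joined lists, and effective lengths. Their deposited p-value, FDR and ΔPSI columns hold the authors' own comparisons and were not used. The authors tested expression with DESeq2 1.26.0. That tool needs counts and was not run here.

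Members were found by gene symbol. The members and gene lists were chosen with earlier results of these data known. All members were named, with every Mbnl1 and Rbfox1 event and, for other members, events with ΔPSI over 10% or an unadjusted limma p under 0.05. Other member events were added after their values were seen. The lists were other tissue splicing regulators, target genes and cell type markers, with genes past an unadjusted p of 0.05 named for the regulators. Markers are given by counts and summed TPM, although the rule for named genes also covered them.

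For expression, limma 3.58.1 (eBayes with trend, R 4.3.3) was fitted to log2(TPM + 1), for 10481 genes above 5 TPM in at least 1 library. Fold changes on this scale understate those of low genes. Comparisons between muscles had mouse as a block, since both muscles of a mouse are named in the titles. The deviations of a mouse's 2 libraries from their group means correlated with r of -0.119 to 0.333. For splicing, limma was fitted to log2 ratios of the 2 forms, after adding 0.5 to the reads of each and dividing by its length. Events averaged over 10 reads in each group, and those with every PSI at most 5%, or every PSI at least 95%, were dropped. P-values are two-sided and adjusted by the Benjamini-Hochberg method over all features tested. Single values were compared by exact permutation tests. Both tests were run on simulated data, and no conclusion is drawn from this here. The splicing simulation gave every event the same spread, so it does not show how the test behaves where 1 sample stands apart. MXE events count the exon that is first in the transcript. Exons were annotated with GENCODE vM21. Each library is 1 muscle of 1 mouse, so p-values for flight against ground measure the spread between 3 mice per group. For splicing, that spread also holds the counting error of the reads. Where mouse was a block, p-values measure the spread of the muscle difference within mice. Reads were not marked with molecular identifiers, and limits from 0 reads (3 reads) cover counting error only.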

Additional observations from a re-analysis of the deposited data

How the results depend on the processing

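The number of members called was 0 under every alternative for expression and, with 1 exception, for splicing. The alternatives were pseudocounts of 0.1 and 5, no filter on genes or events, limma without a trend, median-ratio scaling, a fit on all 12 libraries, 1 added to reads, a mean of over 20 reads, read weights, the quasi-binomial model and leaving out each mouse or sample. The exception was the comparison of the muscles on the ground, where leaving out single samples gave 0 to 2 called events, the 2 being the forms of Mbnl1 exon 2 without the ground quadriceps sample at position 1; the cause was not tested. No member's difference with an unadjusted limma p under 0.05 changed its direction under any of these. Celf2 between the muscles on the ground had a limma adjusted p of 0.0423 without the mouse block, at under 1.5-fold. Rbfox2 in the gastrocnemius had limma adjusted p of 0.0476 (without M11) to 0.3325 when 1 mouse was left out, at log2 fold changes of 0.49 to 0.61, and 0.0604 to 0.216 under the other settings; it was not called, because it stayed under 1.5-fold where p passed. With the replicate number of the titles as a block it was 0.216. That number is shared by ground and flight mice without a stated link, their deviations correlated with r of -0.18 to 0.111, and the block gave 0 calls, as did leaving the mouse block out of the muscle comparisons. No paired analysis was possible for splicing because the event tables carry no mouse names. Depth differed widely between the member events with an unadjusted limma p under 0.05 for flight, from 17 to 25 reads per sample for the short form of Mbnl1 exon 2 to 147 to 220 for its long form, both in the quadriceps.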
